A study of Arabidopsis thaliana with 50 samples.

Results

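The genes described here are the 9 ATG8 genes of Arabidopsis thaliana, ATG8A to ATG8I, and ATG7. They were found by their gene identifiers in the table of gene-level comparisons that the authors deposited. Of the 10 genes, 9 are among the 18231 genes that the authors' deposited table lists. ATG8C (AT1G62040) is not listed and has no value here. The table lists genes with a corrected genotype p under 0.05. They make up 70.7% of 25801 genes tested, a number inferred from the corrected and uncorrected p-values and stated by no source.

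Rosette leaves were divided across the middle, and RNA was sequenced from pools of 7 leaf parts, with 5 pools in each of 10 groups, 50 libraries in all. The groups were the apical and the basal parts of fully expanded leaves of 5 lines, all in the Col-0 background and 7 weeks old. Plants grew at 22 °C with an 8 h light period. The lines were wild type (Col-0), the single mutant pp2a-b'γ (b'γ), the double mutants pp2a-b'γζ (b'γζ) and pp2a-b'γ sid2 (b'γ sid2), and a complemented line in which b'γ carries P35S:PP2A-B'γ. The b'γ lesion is thus shared by the 4 lines other than wild type. B'γ and B'ζ are regulatory subunits of protein phosphatase 2A, and SID2 encodes isochorismate synthase 1 (ICS1), the main source of salicylic acid in infected leaves. The promoter P35S is viral and active in most cell types, so the complementing B'γ was not under its own control. The alleles, and how many independent transformants stood for the complemented line, are not given in the sources used here. Apical parts of b'γ were yellowing and dying, whereas their basal parts looked healthy.

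Autophagy carries cell contents to the vacuole inside a double membrane, the autophagosome, and in ageing leaves it helps to recycle protein and chloroplast material. ATG8 is a small ubiquitin-like protein that is joined to a membrane lipid, phosphatidylethanolamine. The protease ATG4 trims most ATG8 proteins to a terminal glycine, ATG7 activates that glycine, and ATG3 transfers ATG8 to the lipid with the help of the ATG12, ATG5 and ATG16 complex. Lipid-bound ATG8 then holds cargo receptors on the growing membrane. ATG7 is a single gene in Arabidopsis, whereas ATG8 is a family.

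The last 45 coding bases of the ATG8 genes show how the family divides. The glycine codon that ATG7 acts on, found here as the glycine codon after a threonine and a phenylalanine codon, is in capitals, and the stop codon is left out. Sequences are those of the RefSeq annotation of TAIR10.1, read 5′ to 3′ on the strand of each gene.
ATG8A: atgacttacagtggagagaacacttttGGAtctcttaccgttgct
ATG8B: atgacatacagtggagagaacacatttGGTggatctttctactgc
ATG8C: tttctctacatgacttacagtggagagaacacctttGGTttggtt
ATG8D: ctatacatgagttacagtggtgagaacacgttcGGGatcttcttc
ATG8E: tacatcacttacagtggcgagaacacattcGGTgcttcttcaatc
ATG8F: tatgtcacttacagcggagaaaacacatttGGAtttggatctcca
ATG8G: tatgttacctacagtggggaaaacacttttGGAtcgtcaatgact
ATG8H: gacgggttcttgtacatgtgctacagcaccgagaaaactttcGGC
ATG8I: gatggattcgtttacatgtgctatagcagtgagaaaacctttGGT

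In ATG8H and ATG8I the glycine codon was the last one, with 0 codons after it. These are the ATG8 genes whose products carry no tail for ATG4 to remove. In the other ATG8 genes between 2 and 5 codons followed, 5 in ATG8A and ATG8B and 2 in the ATG8C end shown, which is 1 of 2 annotated. Over the 36 pairs of ATG8 genes the coding sequences were identical at 56.9% to 85.3% of positions. ATG8A and ATG8B were the most alike, at 85.3%, and their transcripts shared a longest run of 53 identical bases. How reads that match more than one gene were counted is not given in the sources used here, so the split between ATG8A and ATG8B is uncertain.

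In the yellowing apical parts of b'γ, transcripts of every listed gene of the set stood above wild type in the authors' deposited table. ATG8H was the highest with a log2 fold change of 2.24, followed by ATG7 with 1.89. ATG8E was the member for which the rise also passed the strictest test that the deposited values allow. In the other 3 lines all 9 genes stayed within 2-fold of wild type. Each log2 fold change is the authors' deposited value for apical parts of a line against apical parts of wild type, and no library's own value is used.

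A gene is called higher or lower here where its log2 fold change is at least 1 in size, a 2-fold difference. Rose and fell are written only of genes that, besides, passed a test with the largest error that the deposited p-values allow. The deposited genotype and interaction p-values rest on all 50 libraries. In a balanced analysis of variance with 40 residual degrees of freedom, they limit the residual spread from above once the apical fold changes are known. The test used that upper limit, with Benjamini-Hochberg adjustment over the inferred 25801 genes and a threshold of 0.05. Where the genotype and interaction terms were nearly equal in size, as for ATG8H and ATG8G, the limit was very wide. Changes of the sizes seen here could not pass there. The limit was also wide for ATG8B and ATG7, with standard errors of up to 2.09 and 1.07. Failing this test says nothing on whether a gene changed. A second error assumed that line differences were as large in basal as in apical parts, and is named the equal-parts error below. Both errors are inferred from p-values and neither was measured over libraries.

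In b'γ, 5 of the 9 listed genes were at least 2-fold higher than wild type (ATG7, ATG8A, ATG8B, ATG8E and ATG8H), where 17% of all listed genes were. The 9 genes had a median log2 fold change of 1.13 in the authors' deposited table, beside 0.02 over all listed genes. One gene, ATG8E, rose by both criteria, where 7.47% of listed genes did. With the equal-parts error all 5 passed, where 16.4% of listed genes were higher and passed. With basal line differences limited to at most 2 times the apical ones, a limit chosen after seeing the data, all 5 also passed, where 14% of listed genes did.

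ATG7 (AT5G45900, listed under the older symbol APG7), which encodes the enzyme that activates ATG8 and ATG12, had deposited log2 fold changes of 1.89 in b'γ, 0.12 in b'γζ, 0.12 in b'γ sid2 and 0.11 for the complemented line. The b'γ value is a 3.71-fold difference. It stood apart from the other 3 lines, which lay close together. The equal-parts standard error (SE) was 0.21, with a 95% interval of 1.46 to 2.32 and an adjusted p of 9.22e-10, while the largest-error test gave an adjusted p of 0.287. By the deposited values, 8.78% of listed genes were higher than ATG7 in b'γ.

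ATG8H (AT3G06420), whose product ends at the glycine, had deposited log2 fold changes of 2.24 in b'γ, -0.43 in b'γζ, 0.01 in b'γ sid2 and -0.16 for the complemented line. The b'γ value is a 4.74-fold difference, and 7.01% of listed genes were higher. The equal-parts 95% interval was 1.63 to 2.86, with an adjusted p of 5.07e-08. The largest allowed SE was 6.11, and the largest-error test could therefore not pass, with an adjusted p of 1. ATG8I (AT3G15580), the other gene without a tail, had a smaller deposited log2 fold change of 0.74 in b'γ, and values of -0.08, -0.05 and -0.23 in b'γζ, b'γ sid2 and the complemented line. Its equal-parts 95% interval in b'γ, 0.36 to 1.11, did not reach that of ATG8H.

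Among the genes whose products are trimmed by ATG4, ATG8E (AT2G45170) rose. Its deposited log2 fold changes were 1.17 in b'γ, -0.36 in b'γζ, -0.52 in b'γ sid2 and -0.43 for the complemented line. The b'γ value is a 2.25-fold difference, and the largest-error test gave an adjusted p of 2.22e-04 with an SE of at most 0.23.

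ATG8B (AT4G04620) had deposited log2 fold changes of 1.34 in b'γ, -0.14 in b'γζ, -0.25 in b'γ sid2 and 0.02 for the complemented line. ATG8A (AT4G21980), its closest relative in sequence, had deposited log2 fold changes of 1.13 in b'γ, -0.38 in b'γζ, -0.34 in b'γ sid2 and -0.30 for the complemented line. Both were over 2-fold higher in b'γ and neither passed the largest-error test, with adjusted p of 0.971 for ATG8B and 0.186 for ATG8A. With the equal-parts error the adjusted p was 1.06e-07 for ATG8B and 8.79e-08 for ATG8A. Their b'γ values were close to that of ATG8E, while the largest allowed SE was 2.09 for ATG8B, 0.55 for ATG8A and 0.23 for ATG8E. Passing or failing thus does not show that ATG8E responded differently.

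The remaining 3 ATG8 genes stayed within 2-fold of wild type in every line. ATG8G (AT3G60640) had deposited log2 fold changes of 0.42 in b'γ, -0.18 in b'γζ, -0.25 in b'γ sid2 and -0.12 for the complemented line. ATG8D (AT2G05630) had deposited values of 0.29, -0.21, -0.24 and -0.19 in the same order of lines. ATG8F (AT4G16520) had deposited values of 0.20, -0.09, -0.07 and -0.20, of which that in b'γ was the smallest of the 9 genes there. The order of the 8 listed ATG8 genes in b'γ was thus H, B, E, A, I, G, D and F. The equal-parts intervals of B, E and A overlapped each other, as did those of G, D and F, and that of I overlapped both groups. That of H, 1.63 to 2.86, overlapped that of B, 0.96 to 1.72. The order, with the first place of H, is thus only partly resolved.

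**Figure D1:**
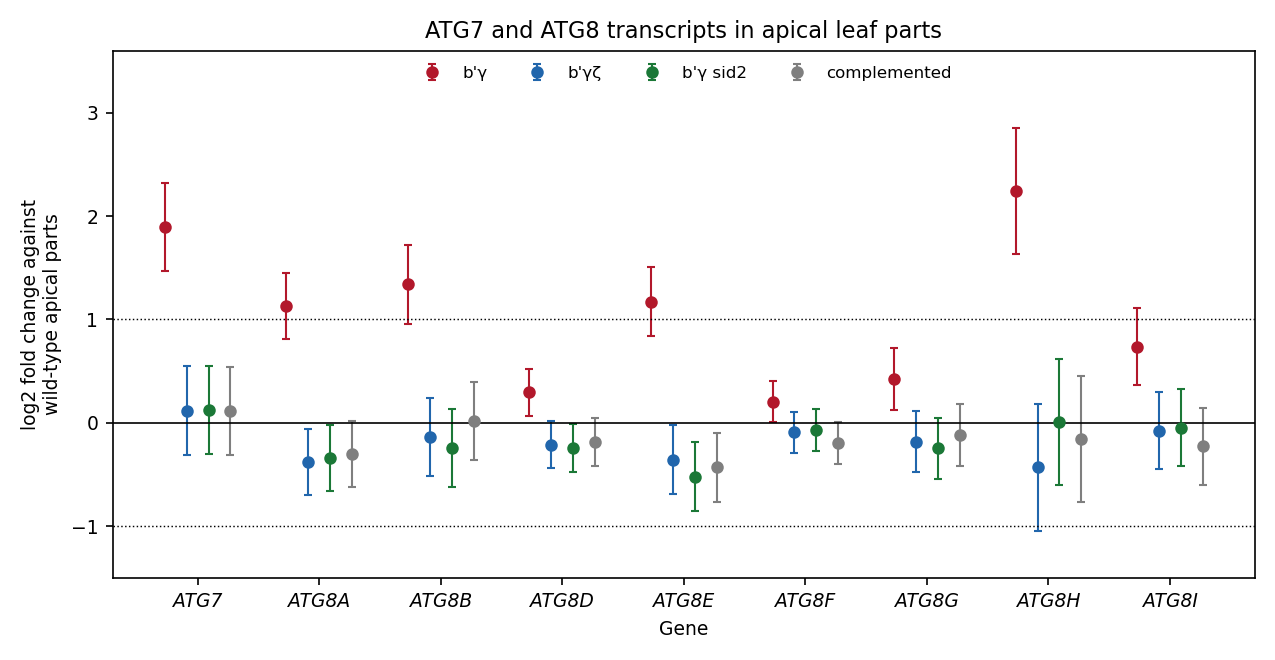
Log2 fold change of ATG7 and the 8 listed ATG8 genes in apical leaf parts of 4 lines against wild type (vertical axis), by gene (horizontal axis). Points are the authors' deposited values, bars are 95% intervals with the equal-parts error, the solid line marks no difference and the dotted lines mark 2-fold. The b'γ points are above 0 for all 9 genes and above the 2-fold line for 5 of them, while all points of the other 3 lines lie between the dotted lines.

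In the 3 other lines, 0 of the 9 genes were at least 2-fold from wild type in either direction. Over all listed genes the share was 7.61% in b'γζ, 12.1% in b'γ sid2 and 4.85% for the complemented line. The median log2 fold change of the 9 genes in the authors' deposited table was -0.18 in b'γζ, -0.24 in b'γ sid2 and -0.19 for the complemented line, against medians over all listed genes of -0.01, 0.02 and 0. All 8 listed ATG8 genes were below 0 in b'γζ and 7 of 8 were in each of the other 2 lines, while ATG7 was above 0 in all 3. All listed genes gave shares below 0 of 51.2% in b'γζ, 47% in b'γ sid2 and 49.4% for the complemented line. The largest-error test called 0 of the 9 genes in each of these lines at any size, where it called 4.53%, 10.7% and 2.32% of listed genes. At an unadjusted p under 0.05 it gave 0 genes in b'γζ, 1 in b'γ sid2 and 0 for the complemented line, and the equal-parts error gave 2, 3 and 1. The shares of all listed genes at that p were 11.7%, 19.6% and 9.02% in the largest-error test and 30.9%, 43.3% and 27.5% with the equal-parts error. After adjustment the equal-parts error left 1 gene, ATG8E in b'γ sid2, with an adjusted p of 0.0177, where 15.4% of listed genes were lower and passed. All 4 comparisons share the same wild-type pools, so a deviation of those pools would move the 4 values of a gene together.

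Subtracting the deposited values gives each line against b'γ itself, a comparison from which the wild-type pools drop out. The same 5 genes were at least 2-fold lower than in b'γ in each of b'γζ, b'γ sid2 and the complemented line. The shares over all listed genes were 14.5%, 15.8% and 15.1%. ATG8H differed most, with log2 differences of -2.68, -2.24 and -2.40 in that order of lines. ATG7 gave -1.77, -1.77 and -1.78. These estimates lay close together, but each had an SE of 0.21 by the equal-parts error and at most 1.07. ATG8E fell in all 3 comparisons, by 1.53, 1.69 and 1.60 on the log2 scale, with adjusted p of 5.51e-06, 3.99e-07 and 1.68e-06 in the largest-error test. It was the 1 member that fell in each, where 5.79%, 7.05% and 6.2% of listed genes fell. With the equal-parts error 5 genes passed in each comparison, where 13.9%, 15.3% and 14.4% of listed genes were lower and passed. With basal differences at most 2 times the apical ones 5 genes passed as well, where 11.5%, 12.8% and 11.9% did.

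ATG8A gave log2 differences from b'γ of -1.51, -1.47 and -1.44 in b'γζ, b'γ sid2 and the complemented line, and ATG8B gave -1.48, -1.59 and -1.32. Neither passed the largest-error test. For ATG8I the log2 differences were -0.81, -0.78 and -0.97, for ATG8G -0.61, -0.67 and -0.54, and for ATG8D -0.51, -0.54 and -0.48. ATG8F had the smallest, at -0.30, -0.27 and -0.40. Of these, that of the complemented line passed the largest-error test without reaching 2-fold, with an adjusted p of 0.0421, where 9.97% of listed genes were lower and passed. The 3 comparisons share the b'γ pools and are not independent of each other.

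The authors' deposited p-values also test whether leaf parts differed and whether the lines differed unequally in the 2 parts. The corrected p of leaf part was under 0.05 for all 9 genes, beside 54.1% of listed genes. The corrected interaction p was under 0.05 for 8 of 9, beside 42.4% of listed genes. ATG8H had the smallest of the set in the authors' deposited table, 4.36e-09, followed by ATG7 with 9.05e-08, ATG8B with 9.6e-08 and ATG8A with 1.52e-07. In the same deposited column ATG8G had 0.00173, ATG8I 0.0137, ATG8E 0.0159 and ATG8D 0.0188. ATG8F, the gene with the smallest value in b'γ, had 0.835.

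For genotype, the authors' deposited corrected p was smallest for ATG8E, at 8.91e-16, and largest for ATG8G, at 7.23e-04. ATG8E combined a large genotype term (F = 67.9) with a small interaction term (F = 4.55), both recovered from the deposited p-values. ATG8H had terms of nearly equal size, 23.8 and 27.4. In the analysis-of-variance model the genotype term is the larger one where basal line differences run, on balance, in the direction of the apical ones. This was so for 7 of the 9 genes and for 94.6% of listed genes, a share that the selection on genotype p raises. ATG8G and ATG8H were the exceptions. ATG8D was the gene for which leaf part gave the smallest of the 3 p-values, 1.09e-07 in the authors' deposited table, and which part was higher cannot be read from it.

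**Figure D2:**
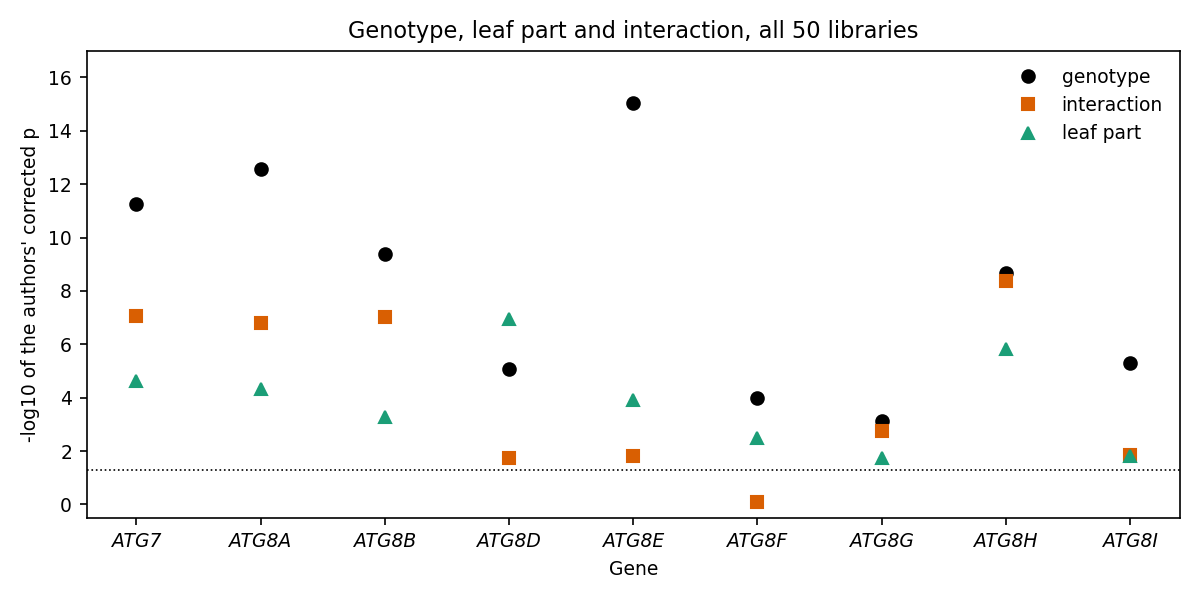
Corrected p-values of genotype (circles), interaction (squares) and leaf part (triangles) in the authors' deposited table, as -log10 (vertical axis), for ATG7 and the 8 listed ATG8 genes (horizontal axis). The dotted line marks 0.05. ATG8E has the highest circle and a square close to the line, the circle and square of ATG8H nearly coincide, and the square of ATG8F lies below the line.

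Other genes of the pathway were taken from 5 lists of 41 genes, of which 38 are listed. In b'γ, 36 of the 38 stood above wild type, beside 50.8% of listed genes, with a median log2 fold change of 0.61 in the authors' deposited table. Of these genes 4 were at least 2-fold higher, 1 was at least 2-fold lower and 2 rose, where 17%, 16.2% and 7.47% of listed genes did, so large differences were not frequent among the 38. In the other 3 lines the medians were -0.06, -0.06 and 0.01. All these comparisons rest on the same apical pools as those of ATG7 and ATG8.

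By step, the 7 listed genes of the ATG1 kinase complex, which starts autophagosome formation, had a median log2 fold change of 0.69 in b'γ. The kinase gene ATG1A rose, with a deposited log2 fold change of 1.21 and an adjusted p of 0.00453 in the largest-error test. The 9 listed genes of the ATG9, ATG2 and ATG18 group, which supplies membrane, had a median of 0.81, and ATG18H was the 1 gene over 2-fold higher, with a deposited value of 1.31 and an adjusted p of 0.803. The 5 listed genes of the phosphatidylinositol 3-kinase complex, which marks the growing membrane, had a median of 0.79. In it VPS15, the regulatory subunit, rose, with a deposited log2 fold change of 1.21 and an adjusted p of 0.0468. ATG14A, the subunit that directs the kinase to autophagy, had a deposited value of 1.12 and an adjusted p of 1.

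The enzymes that work beside ATG7 in conjugation had smaller values in b'γ than ATG7. Of the 8 listed, 0 were at least 2-fold higher in b'γ and 0 passed the largest-error test there, while 8 of 8 were above 0. The shares of all listed genes were 17% for 2-fold higher, 11.4% for higher and past the test, and 50.8% for above 0, so counts of 0 among 8 are near the background. Their median log2 fold change was 0.42, against 1.89 for ATG7. The highest were ATG12A, encoding the second ubiquitin-like modifier that ATG7 activates, with a deposited value of 0.67, and ATG3, encoding the conjugating enzyme for ATG8, with 0.58. The ATG8 proteases ATG4A and ATG4B had deposited values of 0.17 and 0.44.

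Of 9 listed genes for proteins that bind ATG8 and bring cargo to it, 7 were above 0 in b'γ, beside 50.8% of listed genes. The 9 genes had a median log2 fold change of 0.27 in b'γ. TSPO, which encodes a stress-induced membrane protein degraded by autophagy, differed in sign from the ATG8 genes, with deposited log2 fold changes of -1.34 in b'γ, 0.73 in b'γζ, 1.67 in b'γ sid2 and 0.64 for the complemented line. Against wild type neither 2-fold difference passed the largest-error test, with adjusted p of 0.154 in b'γ and 0.106 in b'γ sid2. Against b'γ, TSPO rose in all 3 lines, by 2.07, 3.02 and 1.98 on the log2 scale, with adjusted p of 0.0193, 3.33e-04 and 0.0256. NBR1, the receptor for ubiquitin-tagged aggregates, passed the largest-error test in b'γ without reaching 2-fold, at a deposited value of 0.76 and an adjusted p of 1.06e-04.

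Of the upstream regulators, TGA9 encodes a bZIP transcription factor reported to activate ATG8 genes. Its deposited log2 fold changes were 5.44 in b'γ, 0.17 in b'γζ, 0.40 in b'γ sid2 and 0.30 for the complemented line, and 1.24% of listed genes were higher than TGA9 in b'γ. Its genotype and interaction terms were close to equal, so the largest-error test could not pass, with an adjusted p of 1, while the equal-parts error gave an adjusted p of 4.1e-08. The genes of the TOR kinase complex, which restrains autophagy when nutrients suffice, had deposited log2 fold changes in b'γ of 0.99 for TOR, 0.75 for RAPTOR1A and 0.47 for RAPTOR1B. For KIN10, which encodes the catalytic subunit of the energy-sensing kinase SnRK1, the deposited value was -0.29. RAPTOR1A and KIN10 passed the largest-error test below 2-fold, with adjusted p of 0.0157 and 0.00654.

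TGA factors bind DNA at TGACG. The letters TGACG were searched on both strands in the 200 bases before each annotated gene start. They were found for 6 of the 10 genes (ATG8A, ATG8E, ATG8F, ATG8G, ATG8H and ATG8I) and for 15.7% of the windows of all 27443 protein-coding genes of the same annotation. The window of ATG8E, the gene that rose, lies at chr2:18624064-18624263 on the plus strand of TAIR10.1, with TGACG or its reverse complement CGTCA and the W-box core TTGAC in capitals.
ATG8E upstream: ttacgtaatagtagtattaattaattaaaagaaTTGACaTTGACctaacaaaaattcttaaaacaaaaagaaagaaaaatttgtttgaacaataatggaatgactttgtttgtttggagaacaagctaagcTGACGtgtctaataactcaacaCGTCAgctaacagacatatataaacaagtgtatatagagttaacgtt

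Both orientations of TGACG occurred in this window, starting 69 and 47 bases before the gene start. Windows of 29 bases around a match in ATG8A, the highest gene ATG8H and the lowest gene ATG8F are shown on the strand of each gene, with the match in capitals.
ATG8A at chr4:11655495-11655523, plus strand: aacagatggtggTGACGtaagacaagtgt
ATG8H at chr3:1956470-1956498, minus strand: atagataaactgTGACGtgcacaagaaat
ATG8F at chr4:9308579-9308607, minus strand: gctaatatctacCGTCAgattctcactga

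The match of ATG8H lies within the annotated transcript of its upstream neighbour EMB2750, which ends 11 bases before ATG8H on the same strand. Of the genes over 2-fold higher in b'γ, ATG8A, ATG8E and ATG8H had a match in these windows, whereas ATG7 and ATG8B had none. Of those within 2-fold, ATG8F, ATG8G and ATG8I had 1 or more, whereas ATG8D had none. The 29 bases around the ATG8I match that starts 82 bases before the gene overlap the tRNA gene AT3G15585. The W-box core TTGAC occurred in the windows of 2 of the 10 genes (ATG8E and ATG8I) and in 38.7% of all windows, and the ATG8I match overlaps a TGACG match, both on the strand opposite to the gene. The G-box CACGTG occurred in 0 of 10 and in 5.64%. A match is a string of letters and is not evidence of binding.

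**Figure D3:**
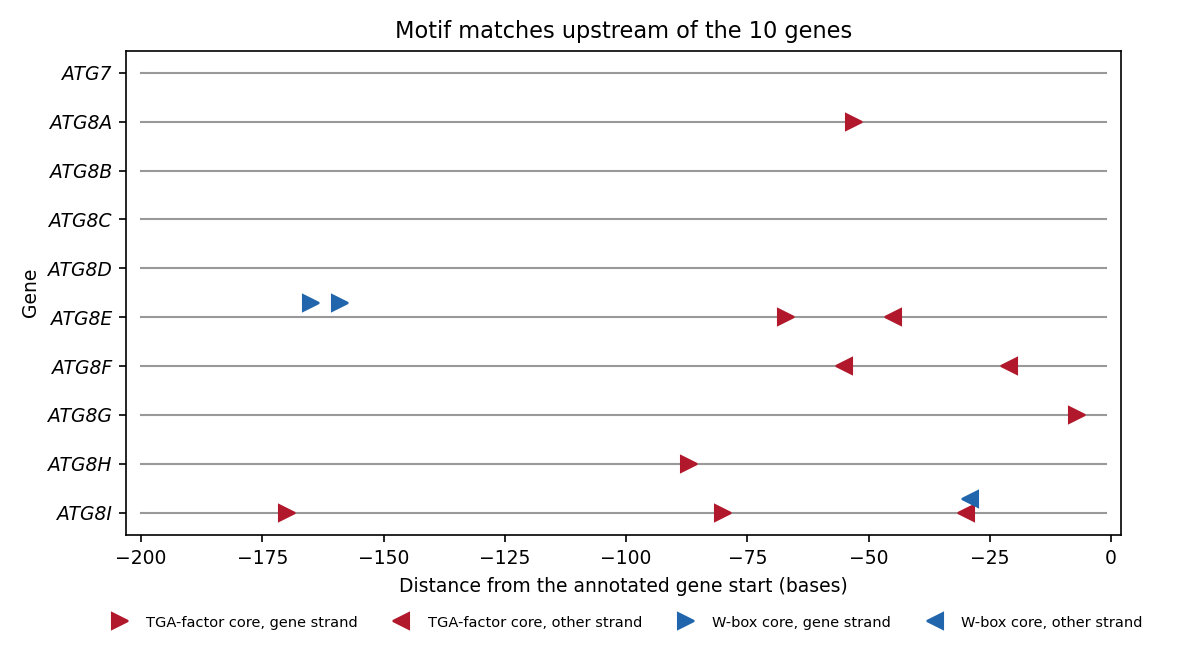
Matches to TGACG (TGA-factor core) and TTGAC (W-box core) in the 200 bases before the annotated start of the 10 genes (vertical axis), by distance from the start in bases (horizontal axis). Triangles point right for a match on the gene's strand and left for one on the other strand, and W-box matches are drawn slightly above the line of their gene. ATG7, ATG8B, ATG8C and ATG8D have none, and ATG8E has 2 of each kind.

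Of the 9 listed genes, 4 have a close neighbour or an overlapping gene that is described below, and other neighbours lie about as close. AT4G04614 lies 177 bases downstream of ATG8B and AT3G15590 lies 291 bases upstream of ATG8I, with deposited values of 0.22 and -0.14 in b'γ. AT2G45180 lies 396 bases downstream of ATG8E, with -2.45. SAG12, the classical marker gene of leaf senescence, ends 211 bases before ATG7 on the same strand in TAIR10.1. By the authors' deposited table, the log2 fold changes of SAG12 were 13.02 in b'γ, -0.02 in b'γζ, -0.02 in b'γ sid2 and 0.14 for the complemented line. Whether transcripts running on from SAG12 were counted for ATG7 was not tested. EMB2750, next to ATG8H, differed from it in direction in b'γ, at -0.63 in the authors' deposited table. ATG8I shares 183 bases with AT3G15578 on the other strand, whose deposited value in b'γ was 0.80, and ATG8A shares 27 bases with AT4G21990 on the other strand, with -0.67. The library kit keeps strand, but the strand setting of the counting is not given in the sources used here.

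The 3 genes whose deposited values in the 4 lines lay nearest to those of ATG7, by Euclidean distance on the log2 scale, were AT5G49780, annotated as a leucine-rich repeat kinase (0.134), AT5G06750, annotated as a protein phosphatase 2C (0.155), and FAR4, annotated as a fatty acyl-CoA reductase (0.173). In all, 63 listed genes were within 0.3 of ATG7, and ATG18H, the nearest autophagy gene, was at rank 343. ATG8H had 8 genes within that distance. The nearest to it was AT3G04660, annotated as an F-box protein (0.153), followed by AT2G24285 (0.190) and AT1G05330 (0.209), both uncharacterized. ATG7 was at rank 185 from ATG8H.

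The labels and tissue could be checked only through fold changes, since the deposited table holds no levels, and depth per library is unknown. B'γ itself had deposited log2 fold changes of -0.69 in b'γ, -0.46 in b'γζ, -0.72 in b'γ sid2 and 0.35 for the complemented line. B'ζ fell in b'γζ, with a deposited value of -2.59. ICS1 had deposited values of 3.18 in b'γ and -0.97 in b'γ sid2. Among 20 markers in 7 lists of leaf cell types, 18 are listed. In b'γ the epidermal ATML1 had -1.51 in the authors' deposited table (with GL2 at -0.61). The guard cell KAT1 had 1.38 (with MYB60 at -0.59, HT1 at -0.20 and FAMA at 0.27). The xylem XCP1 had 1.49 (with IRX3 at -0.15), and the myrosin cell genes TGG1 and TGG2 had -1.53 and -1.74. The mesophyll CAB3 had -1.84 (with RBCS1A at -0.67). The other 12 listed markers were within 2-fold in b'γ, including all 3 of phloem and all 3 of dividing cells. CAB3 was over 2-fold lower in the other lines too, at -1.24 in b'γζ, -1.63 in b'γ sid2 and -1.65 for the complemented line. RBCS1A, the other mesophyll marker, differed in sign there, at 0.13, 0.65 and 0.21 in the same order. In b'γ sid2, XCP1, TGG1, TGG2 and GL2 had 1.48, 2.07, 3.15 and 1.05 (with IRX3 at 0.88 and ATML1 at 0.19). The part of cell types in the ATG8 and ATG7 values was not tested. In parts of whole leaves, fewer cells of a type and less RNA per cell cannot be told apart. Of 8 reference genes 6 are listed, with a median log2 fold change of 0.14 in b'γ. Measured against them, ATG8A stood at 0.99, just under 2-fold.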

How the data were processed

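Polyadenylated RNA from 50 pools of leaf parts was sequenced from stranded libraries, per the labels' protocols. The submitters' processing notes name bcl2fastq, DESeq and the TAIR10 genome, without versions. For apical parts of each line against wild type the authors deposited log2 fold changes, with corrected and uncorrected p-values of genotype, leaf part and their interaction. The header does not give the log base: 262 deposited values lay 0.2 from a recurring value, the step that base 2 gives with 5 libraries, against 10 for natural logs and 19 for base 10. Values per library were not used, so no count model was fitted and the deposited fold changes carry no error of their own.

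The p-values were read as those of a balanced 2-way analysis of variance (4 and 40 degrees of freedom), a reading that no source states. For 66 of 159 genes at exactly 0 in 3 lines, the 3 F values were equal within 2%, as this model gives where 1 group alone departs. The model treats the apical and basal pools of the same leaves as independent. Residual errors, contrasts and Benjamini-Hochberg adjustment were computed with SciPy 1.17.1 and pandas 2.3.3 and tested on simulated data. The simulation followed the same balanced model, with independent pools of equal variance. It therefore tests the calculation, and cannot tell whether that model holds for these data. Sequences were read with Biopython 1.88 from RefSeq TAIR10.1. The table carries no coordinates, and genes were matched by locus identifier (10 of 10 genes, 17713 of 18231 listed genes).

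The labels say that the 5 pools of a group are biological replicates. The genes, lists and tests were chosen with earlier results of these data known. Genes outside the set are named where at least 2-fold from wild type in a line or, failing that, for the 2 largest values of a list, besides chromosomal neighbours, nearest profiles and genes of context. NBR1, ATG4A, ATG4B, the TOR complex and KIN10 were named after their values were seen.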

Additional observations from a re-analysis of the deposited data

Results flagged for a closer look

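For 8 of the 9 listed genes the differences between lines were not the same in apical and basal parts, by the corrected interaction p of the authors' deposited table. This p was 4.36e-09 for ATG8H, 9.05e-08 for ATG7, 9.6e-08 for ATG8B and 1.52e-07 for ATG8A. It was 0.00173 for ATG8G, 0.0137 for ATG8I, 0.0159 for ATG8E and 0.0188 for ATG8D. The share of all listed genes with such a p under 0.05 was 42.4%. The deposited table gives fold changes for apical parts alone, so which lines differed in basal parts, and by how much, was not tested.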

How the results depend on the processing

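Over 17 results and 67 alternatives, 52 alternatives kept the result, 4 were weaker and 11 were stronger. These labels compare counts of genes in either direction, so a reversed direction could not show in them. Kept covers counts of 0 that stayed 0, and small changes such as from 5 to 4. With a 4-fold limit 1 gene (ATG8H), not 5, was higher in b'γ than in wild type, and 1, not 5, was lower than in b'γ in each of the other 3 lines. With the equal-parts error 5 genes, not 1, passed in b'γ against wild type and in each of the 3 comparisons with b'γ. With basal line differences limited to at most 2 times the apical ones, an alternative chosen after seeing the data, 5 genes also passed in these 4 comparisons. Adjusting p over listed genes alone gave 2 genes for b'γζ and 2 for b'γ sid2 against b'γ, and dropping the 2-fold limit gave 2 in the complemented line against b'γ. Centring on the reference genes left 4 genes over 2-fold higher in b'γ. Shares of all listed genes were not computed for the 4-fold limit, the adjustment over listed genes alone or the centring. Counts under these 3 settings thus have no background to be read against. No paired analysis was possible because values per library were not used here, and alternatives that leave out a replicate were not run for the same reason. The error of each fold change is limited by what the deposited p-values allow.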
